A study of Mus musculus with 95 samples.

Results

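The glomeruli of untreated diabetic db/db mice were compared with those of untreated non-diabetic db/+ mice. The members were the 6 Glom db/db and the 6 Glom db/+ libraries, 12 of the 95 libraries of the series, chosen by their labels for tissue, genotype and agent. All 12 came from male mice of the BKS strain at 16 weeks of age, fed a standard diet, and RNA-Seq gave 1 fragments-per-kilobase-per-million (FPKM) value per gene and library. The db/db mice carried the Lepr db mutation of the leptin receptor on both chromosomes. The db/+ mice carried it on 1 chromosome, so that the comparison is between homozygous and heterozygous animals and holds no wild type. The 6 Glom db/+ PIO libraries, from db/+ mice given 15 mg/kg pioglitazone, a PPARG agonist, and the 6 Cortex db/+ and 6 Cortex db/db libraries, from whole kidney cortex of untreated mice, served to sort genes by tissue and to set the cortical effect of diabetes beside the glomerular one. The way the glomeruli were separated from the surrounding tubules is not given in the sources used here.

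Glomeruli are the filters of the kidney, each a tuft of fenestrated capillaries wrapped by podocytes and held together by mesangial cells, inside a capsule lined by parietal epithelium. Their outflow enters the proximal tubule and then the distal nephron and collecting duct, whose cells express their own transporters, claudins and keratins and lie close against the tuft in the cortex. In diabetic nephropathy the mesangium and basement membrane gain matrix, podocytes are lost, and albumin passes into the urine. TGF-beta and BMP ligands, the renin-angiotensin system and prostaglandins are among the signals studied in this setting. In whole glomeruli, fewer cells of one type and less RNA per cell cannot be told apart.

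Lepr, the mutated gene, had 0.18 to 0.42 (median 0.34) FPKM in db/db glomeruli, against 0.28 to 0.74 (median 0.30) FPKM in db/+ glomeruli. The ranges overlapped, and a total per gene symbol does not separate the receptor forms that the db mutation alters, so that these values check no label. Many abundant genes were listed at exactly 0: of the entries of the 4331 genes with a median of 10 FPKM or more among their values above 0, 59.6% were 0 in the 12 libraries, and Actb was at 0 in 10 of them. Nphs1 and Wt1, which define podocytes, and Umod, which defines the thick ascending limb, were listed at 0 in all 12. Zeros were accordingly treated as missing, and testing a gene required 3 or more values per group. The podocyte identity of the samples rested on the few markers with values. Podxl, which coats podocyte foot processes, had 1431 to 2513 FPKM (median 1978) in 5 db/db libraries, against 1881 to 3085 FPKM (median 2502) in db/+. One db/+ library stood apart. In db/+ replicate 2, the mean centred level of 40 proximal tubule genes was 2.17 on the log2 scale, against -0.55 to 0.71 in the other 5 db/+ libraries and -0.33 to 1.47 in db/db libraries. Results that rest on this library are given with and without it, or are said not to be testable without it.

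Of 4210 genes tested with limma on log2(FPKM + 1), 1071 (25.4%) passed an adjusted p of 0.05 by the Benjamini-Hochberg method. Log2 fold changes are given as db/db minus db/+ on this scale, ± SE, and understate the change of genes at low FPKM. There were 696 genes (16.5%) higher in db/db glomeruli and 375 (8.91%) lower, and the median log2 fold change over all genes was 0.04. Of the genes tested, 101 were under 1 FPKM in every db/+ library with a value and passed the filter on low values through other groups, so that a rise of theirs was partly fixed by being tested at all. Among the genes named below these are Grem1, Bmp3, Krt19, Trpv6, Angpt1, Mmp12, Timp4 and Alas2. Negr1 and Ptger2 were under 1 FPKM in every db/db library with a value, and the same limit applies to their falls. For 732 genes (17.4%), the ranges of both groups did not overlap. Higher genes made up 65% of the calls with the values as deposited, 55.1% after quantile normalization and 48.4% after median-of-ratios rescaling, so that the balance of directions depended on the scale. Without db/+ replicate 2, 1216 of 3856 genes passed, and with each 0 entered as a value of 0 instead of missing, 127 of 7041 did.

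Genes were next sorted by where they are expressed, with other libraries than the db/db and db/+ glomeruli: Cortex db/+ was set against Glom db/+ PIO, whose libraries shared in the variance and the filter of the diabetes fit but not in its contrast, and a gene was placed with one tissue when it differed 2-fold or more at an adjusted p under 0.05. Among 4199 genes, 477 (11.4%) were higher in cortex and 990 (23.6%) higher in glomeruli. Of the 763 genes higher in glomeruli that could be tested for diabetes, 70 (9.17%) were higher in db/db and 108 (14.2%) were lower, with a median log2 fold change of -0.03. Of the 314 genes higher in cortex, 142 (45.2%) were higher in db/db and 5 (1.59%) were lower, with a median of 0.47. The remaining classes lay between these: 323 higher and 207 lower of 2145 genes that differed less than 2-fold or did not pass the threshold, and 161 higher and 55 lower of 988 genes with too few values to be sorted. In the plot of shares by tissue class, falls outnumbered rises among glomerular genes, and rises outnumbered falls in each of the other classes. This balance among glomerular genes depended on the setting. With the level of distal and epithelial genes described below as a covariate, 49 of them rose and 19 fell. With each 0 as a value, 6 rose and 6 fell.

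**Figure D1:**
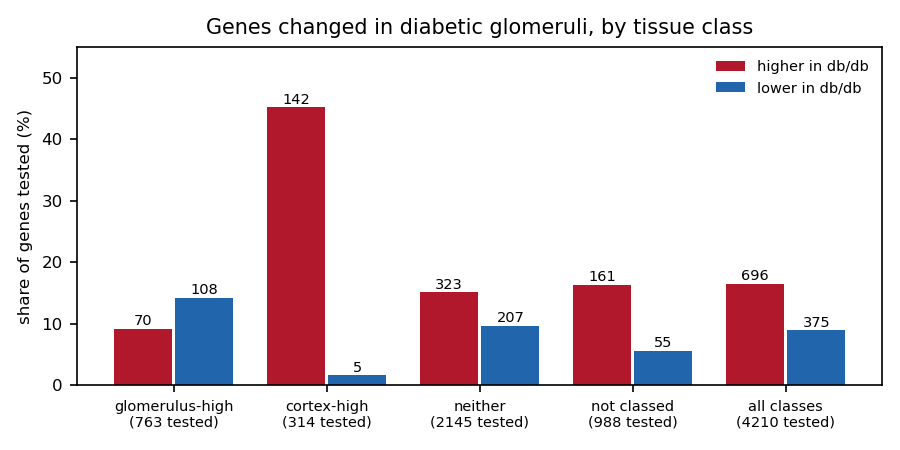
Share of genes tested (vertical axis, %) that were higher (left bar) or lower (right bar) in db/db than in db/+ glomeruli, by tissue class on the horizontal axis, with the number of genes above each bar. The cortex-high genes had the highest share of rises, 45.2%, and the glomerulus-high genes were the one class with more falls (108) than rises (70).

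Among the glomerulus-high genes that fell, Mafa, Steap4 and Gdf5 had the largest changes by the rule for named genes, followed by Sdf2l1 and Hspb1, which are described with the chaperones. Gene positions are given in the mouse build mm9 as in GENCODE release M1. Mafa (chr15:75577273-75578352), a transcription factor known for activating the insulin gene in beta cells, had 0.87 to 3.66 FPKM (median 2.21) in db/db, against 7.39 to 14.8 FPKM (median 10.3) in db/+. Every db/db library was below every db/+ library, and the log2 fold change was -1.87 ± 0.25, adjusted p = 1.44e-05. Steap4 (chr5:7960472-7982213), a metalloreductase of iron and copper handling that is induced by inflammation in fat, had 0.83 to 1.76 FPKM (median 1.34) in db/db, against 4.37 to 10.7 FPKM (median 7.3) in db/+. The groups did not overlap, with a log2 fold change of -1.78 ± 0.18, adjusted p = 6.00e-07. Gdf5 (chr2:155766759-155771103), a BMP-family ligand best known from joint formation, had 2.84 to 8.3 FPKM (median 5.68) in db/db, against 13.3 to 23.1 FPKM (median 19.2) in 5 db/+ libraries. Each db/db value was below each db/+ value, with a log2 fold change of -1.59 ± 0.21, adjusted p = 1.89e-05.

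Arsj, an arylsulfatase family member, had 0.84 to 2.54 FPKM (median 1.48) in db/db, against 5.03, 5.23, 7.96 and 4.39 FPKM in 4 db/+ libraries, with no overlap and a log2 fold change of -1.43 ± 0.22, adjusted p = 0.000171. Sox8 (chr17:25702837-25707631), an HMG-box transcription factor of the SoxE group, had 1.16 to 2.6 FPKM (median 1.73) in db/db, against 5.77, 5.21, 5.04 and 4.72 FPKM in 4 db/+ libraries. Its log2 fold change was -1.17 ± 0.11, adjusted p = 1.19e-06, and no db/db library reached the lowest db/+ value. Negr1 (chr3:156224758-156979409), a membrane-anchored adhesion molecule of neurons, had 0.14 to 0.39 FPKM (median 0.25) in db/db, against 1.3 to 2.68 FPKM (median 1.54) in db/+. The gap between the groups was wide relative to their spread, with a log2 fold change of -1.12 ± 0.11, adjusted p = 1.19e-06. All 6 of these genes were below 1 FPKM in every Cortex db/+ library. The highest cortical value was 0.85 FPKM for Steap4 and 0.27 FPKM for Mafa.

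Among the glomerulus-high genes that rose, Qrfpr (chr3:36078346-36121197), the receptor of the neuropeptide 26RFa, had the largest change by the rule for named genes. The next largest were those of the globins Hba-a2 and Hba-a1, which are described with the blood cells. Qrfpr had 27.2, 29.9, 16.6 and 16.5 FPKM in 4 db/db libraries, against 0.43 to 4.55 FPKM (median 1.94) in 5 db/+ libraries. The lowest db/db value was above the highest db/+ value, and the log2 fold change was 2.87 ± 0.37, adjusted p = 4.63e-05. Myoz1 (chr14:21468324-21475762), a calcineurin-binding protein of the muscle Z-disc, had 5.94, 6.45, 7.34 and 11.3 FPKM in 4 db/db libraries, against 1.12 to 1.62 FPKM (median 1.49) in 5 db/+ libraries, with no overlap and a log2 fold change of 1.85 ± 0.18, adjusted p = 2.22e-06. The uncharacterised transcript 6030419C18Rik had 5.75 to 9 FPKM (median 7.13) in db/db, against 1.53 to 2.25 FPKM (median 2) in db/+. Its log2 fold change of 1.52 ± 0.12, adjusted p = 1.72e-08, was held by 6 values in each group with no overlap. Ankrd1 (chr19:36186455-36194334), a stretch-responsive ankyrin repeat protein of muscle and a common target of YAP signalling, had 12.5 to 26.3 FPKM (median 17) in db/db, against 3.46 to 8.55 FPKM (median 6.53) in db/+, with no overlap and a log2 fold change of 1.31 ± 0.19, adjusted p = 4.63e-05. Rtn2 (chr7:19868011-19881513), a reticulon that shapes the endoplasmic reticulum, had 8.49 to 12.7 FPKM (median 10.6) in db/db, against 3 to 5.79 FPKM (median 4.79) in db/+. Again no db/db library overlapped the db/+ range, and the log2 fold change was 1.05 ± 0.11, adjusted p = 1.66e-06.

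**Figure D2:**
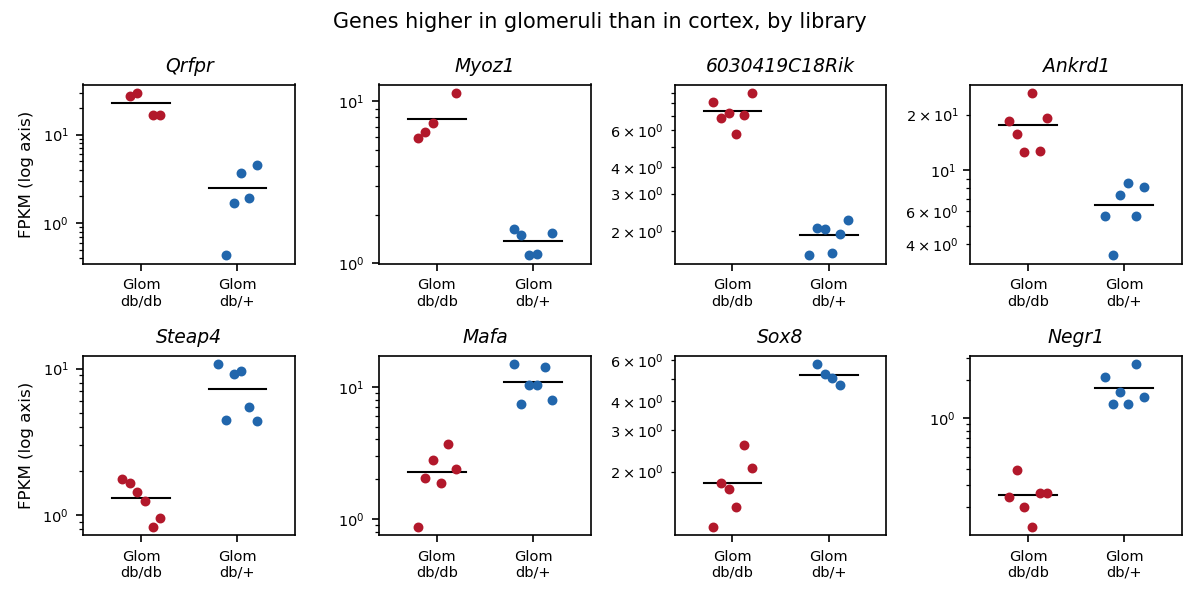
FPKM on log axes in each library with a value above 0 (points) and group means (lines), Glom db/db at the left and Glom db/+ at the right of each panel, for 4 glomerulus-high genes that rose (top) and 4 that fell (bottom). In all 8 panels the points of the 2 groups do not overlap.

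The cell types of the tuft were represented by few tested genes. Of 37 podocyte genes listed, 28 were at 0 in all 12 libraries and 2 were tested: Podxl with a log2 fold change of -0.35 ± 0.13 (adjusted p = 0.0581) and Foxd2, a forkhead factor, with -0.25 ± 0.17 (adjusted p = 0.298), neither past the threshold. Without db/+ replicate 2, Podxl fell by 0.43 (adjusted p = 0.0166), with 5 values in db/db and 5 in db/+. Of 7 genes of the glomerular endothelium tested, 2 rose and none fell. Vwf, the clotting factor stored in endothelial cells, had 1.43 to 2.97 FPKM (median 1.91) in db/db, against 0.32 to 1.18 FPKM (median 0.57) in db/+, and its log2 fold change was 0.88 ± 0.15, adjusted p = 0.00027. Fabp4, which carries fatty acids in capillaries and adipocytes, had 349, 469, 245 and 308 FPKM in 4 db/db libraries, against 112 to 189 FPKM (median 124) in 5 db/+ libraries. Both genes were higher in every db/db library than in any db/+ library, Fabp4 by 1.32 ± 0.22, adjusted p = 0.000764. Sox18, a transcription factor of endothelium, had a log2 fold change of 0.53 ± 0.25 and did not pass (adjusted p = 0.125).

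Of 4 mesangial and smooth muscle genes, 1 passed. Ren1, renin of the juxtaglomerular cells beside the tuft, had 85.3, 168, 49.9 and 122 FPKM in 4 db/db libraries, against 31.1, 23.2 and 79.8 FPKM in 3 db/+ libraries. The ranges overlapped, and the log2 fold change of 1.30 ± 0.42 had an adjusted p of 0.0329. Des, the mesangial filament desmin, had a log2 fold change of -0.22 ± 0.20 and did not pass (adjusted p = 0.446). Of 4 parietal epithelial genes tested, Scin and Cldn1 rose, by 1.63 ± 0.40 and 0.39 ± 0.14 on the log2 scale. Cldn1 no longer passed without db/+ replicate 2 (adjusted p = 0.0869). Ncam1, an adhesion molecule, had 3.47, 3.62, 2.2 and 3.67 FPKM in 4 db/db libraries, against 4.22, 7, 6.17 and 7.82 FPKM in 4 db/+ libraries, and fell with no overlap (log2 fold change -0.77 ± 0.16, adjusted p = 0.00225).

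In the TGF-beta and BMP list, 7 of 20 genes tested rose (35%) and 1 fell (5%), with a median log2 fold change of 0.47 against 0.04 over all genes. Without db/+ replicate 2, 8 of 17 rose and 1 fell, and with each 0 as a value 2 of 20 rose. Most of the rises were BMP ligands, antagonists or targets. Grem1 (chr2:113586321-113598803), gremlin, a secreted BMP antagonist known from fibrosing kidney, had 2.49 to 42.5 FPKM (median 7.24) in 5 db/db libraries, against 0.04, 0.03, 0.27 and 0.48 FPKM in 4 db/+ libraries. Its log2 fold change was 3.02 ± 0.45, adjusted p = 7.83e-05, the db/db values spread widely, and the lowest of them was above the highest db/+ value. Bmp3 (chr5:99283458-99309979), an atypical BMP ligand that opposes osteogenic BMPs, had 1.35 to 5.81 FPKM (median 1.76) in 5 db/db libraries, against 0.12 to 0.42 FPKM (median 0.18) in db/+. It did not overlap between groups, with a log2 fold change of 1.38 ± 0.19, adjusted p = 3.33e-05. Grem1 and Bmp3 stayed under 1 FPKM in every db/+ library, so that the limit given for such genes applies to both. Bmp2, a ligand of the canonical BMP pathway, had 8.87, 8.29 and 11.7 FPKM in 3 db/db libraries, against 5.56, 3.26, 5.32 and 5.29 FPKM in 4 db/+ libraries, with no overlap and a log2 fold change of 0.87 ± 0.20, adjusted p = 0.00521.

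Lrg1, a secreted glycoprotein that modulates TGF-beta signalling in endothelium, had 27.2, 19.1 and 18.7 FPKM in 3 db/db libraries, against 3.8 to 20.6 FPKM (median 7.28) in db/+. A single db/+ library overlapped the db/db range, and the log2 fold change was 1.33 ± 0.32, adjusted p = 0.00674. Bmper and Id4 rose by 1.01 ± 0.30 and 1.01 ± 0.28. Tgfbr3, the co-receptor betaglycan, was the 1 member that fell with all libraries (log2 fold change -0.43 ± 0.14, adjusted p = 0.0345). It could not be tested without db/+ replicate 2, and the fall counted in that fit was of another member. With the level of distal and epithelial genes described below as a covariate, Tgfbr3 did not pass (limma, adjusted p = 0.586). Tgfb1 had a log2 fold change of 0.22 ± 0.16 and did not pass (adjusted p = 0.323).

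Of 14 genes of the interstitial and fibrillar matrix, 7 rose and 2 fell (median 0.60), and none of 4 basement membrane genes passed. The rises included Dcn, Col6a1, Col1a1 and Col3a1, all higher in cortex than in glomeruli by the tissue class. Dcn, decorin, a proteoglycan of interstitial fibroblasts, had 5.65 to 8.3 FPKM (median 7.11) in db/db, against 0.62 to 10.1 FPKM (median 1.46) in db/+. The highest db/+ value, from replicate 2, was above every db/db value, and the log2 fold change was 1.45 ± 0.33, adjusted p = 0.00232. Col6a1, a chain of microfibrillar collagen, had 1.45 to 3.38 FPKM (median 2.33) in db/db, against 0.41 to 2.5 FPKM (median 0.46) in db/+, with overlapping ranges and a log2 fold change of 0.98 ± 0.19, adjusted p = 0.000647. Col1a1, a chain of fibrillar collagen, had 0.6 to 3.59 FPKM (median 1.8) in db/db, against 0.15 to 2.4 FPKM (median 0.38) in db/+, with overlapping ranges and a log2 fold change of 0.76 ± 0.23, adjusted p = 0.0187. Col3a1 had 1.03 to 4.16 FPKM (median 2.56) in db/db, against 0.5 to 3.97 FPKM (median 0.94) in db/+, with overlapping ranges and a log2 fold change of 0.70 ± 0.22, adjusted p = 0.0246. Replicate 2 was the highest db/+ library for all 4 genes. It is also the db/+ library with the highest tubule levels. With the level of distal and epithelial genes described below as a covariate, 2 of the 9 calls of this list were kept. The log2 differences of Dcn, Col6a1, Col1a1 and Col3a1 were then 0.15, 0.56, 0.37 and 0.30 (adjusted p = 0.857, 0.252, 0.602 and 0.676). That fit had little left with which to separate the level from diabetes. Without replicate 2, Dcn, Col6a1 and Col3a1 rose by 1.83, 1.19 and 0.94, with adjusted p = 2.58e-06, 1.84e-06 and 0.000211, and Col1a1 could not be tested. The list then had 6 rises and 2 falls among 13 genes, and 2 rises among 14 with each 0 as a value.

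Mfap2, a microfibril glycoprotein placed in neither tissue class, had 4.94, 7.45, 4.86 and 4.44 FPKM in 4 db/db libraries, against 1.09 to 2.85 FPKM (median 1.54) in db/+. It rose with no overlap, by 1.20 ± 0.18, adjusted p = 0.000123. Loxl1, a collagen and elastin crosslinker, rose by 0.69 ± 0.14, while Col15a1 and Spon1 fell, with log2 fold changes of -0.92 ± 0.31 and -0.58 ± 0.15. Among metalloproteinases and their inhibitors, 6 of 13 rose and none fell (median 0.54), and 2 of the 6, Mmp12 and Timp4, were under 1 FPKM in every db/+ library with a value. Adamts2, a procollagen peptidase, had 1.4 to 2.47 FPKM (median 2.13) in db/db, against 0.72 to 1.15 FPKM (median 0.99) in db/+, with a log2 fold change of 0.64 ± 0.10, adjusted p = 8.21e-05, and no overlap. Mmp12, macrophage elastase, had 0.55 to 4.32 FPKM (median 1.36) in 5 db/db libraries, against 0.21 to 0.69 FPKM (median 0.34) in 5 db/+ libraries. Its ranges overlapped and its log2 fold change of 0.78 ± 0.26 passed at an adjusted p of 0.0316. With each 0 as a value, none of the 13 passed. The inhibitors Timp1, Timp4 and Serpinf1 rose by 0.60 ± 0.14, 0.91 ± 0.26 and 0.82 ± 0.28.

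Several vascular and hormonal signals differed. Angpt1, a ligand of the endothelial receptor Tie2, had 2.47, 4.12 and 3.53 FPKM in 3 db/db libraries, against 0.8, 0.83 and 0.99 FPKM in 3 db/+ libraries. It was the 1 member of 8 of the VEGF and angiopoietin list that passed, with a log2 fold change of 1.21 ± 0.18, adjusted p = 0.000238, and its db/+ values were all under 1 FPKM. Leaving out db/+ replicate 2 gave 3 rises among 7 members. Igfbp3, a carrier of insulin-like growth factors, had 17.5 to 40.8 FPKM (median 21.4) in db/db, against 4.68 to 8.14 FPKM (median 5.3) in 5 db/+ libraries. The groups did not overlap, and the log2 fold change was 1.89 ± 0.25, adjusted p = 2.10e-05. Txnip, a glucose-induced inhibitor of thioredoxin, had 647, 671 and 604 FPKM in 3 db/db libraries, against 420.0 to 456 FPKM (median 436) in 5 db/+ libraries, with no overlap and a log2 fold change of 0.55 ± 0.10, adjusted p = 0.00127. Igf2 and Irs1, a growth factor and the docking protein of the insulin receptor, fell, with log2 fold changes of -0.54 ± 0.17 and -0.32 ± 0.09, so that 2 of 8 members of the insulin and IGF list rose and 2 fell.

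In the prostaglandin list, 3 of 9 genes rose and 1 fell. Ptges, the synthase that makes prostaglandin E from the product of the cyclooxygenases, had 7.23 to 16.6 FPKM (median 11.2) in db/db, against 0.3 to 5.33 FPKM (median 0.67) in 5 db/+ libraries. The groups did not overlap, with a log2 fold change of 2.30 ± 0.44, adjusted p = 0.000773. Ptgs2, the inducible cyclooxygenase, had 0.59 to 2.24 FPKM (median 1.39) in db/db, against 0.52 to 1.33 FPKM (median 0.62) in 5 db/+ libraries, with overlapping ranges and a log2 fold change of 0.50 ± 0.16, adjusted p = 0.0241. Ptger2, a prostaglandin E receptor higher in glomeruli than in cortex, had 0.23 to 0.72 FPKM (median 0.47) in db/db, against 0.61 to 2.09 FPKM (median 1.8) in 5 db/+ libraries. It fell with overlapping ranges (log2 fold change -0.76 ± 0.15, adjusted p = 0.00137). Hpgd, the enzyme that degrades prostaglandins, rose by 1.06 ± 0.25. Ptges was higher in cortex than in glomeruli by the tissue class, its log2 difference was 0.21 (adjusted p = 0.728) with the level of distal and epithelial genes described below as a covariate, and none of the 9 genes passed in that fit.

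Genes of the distal nephron, collecting duct and epithelial junctions rose together. All 14 epithelial adhesion and keratin genes tested, of 25 listed, were higher in db/db (median 2.44), as were all 5 intercalated cell genes (median 2.71), all 4 collecting duct principal cell genes (2.09), all 3 genes of the distal convoluted and connecting tubule (2.80) and 4 of 5 genes of the thick ascending limb (1.29). These counts include 1 collecting duct gene and 1 gene of the distal convoluted and connecting tubule, Krt19 and Trpv6, that were under 1 FPKM in every db/+ library. Over all genes 16.5% were higher. The mean centred level of 48 distal and epithelial genes was 1.38 to 1.94 in db/db libraries, against -1.15 to 1.11 in db/+ libraries, and did not overlap. Without db/+ replicate 2, 13 of 13 epithelial adhesion and keratin genes were higher (median 2.82), and with each 0 as a value, 5 of 14 were. Of 27 proximal tubule genes, 6 rose (22.2%) and none fell, with a median of 0.67, and the level of 40 proximal genes overlapped between the groups. Without db/+ replicate 2, 11 of the 27 rose (median 0.89). The share of these cells in each preparation and their expression per cell cannot be told apart.

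**Figure D3:**
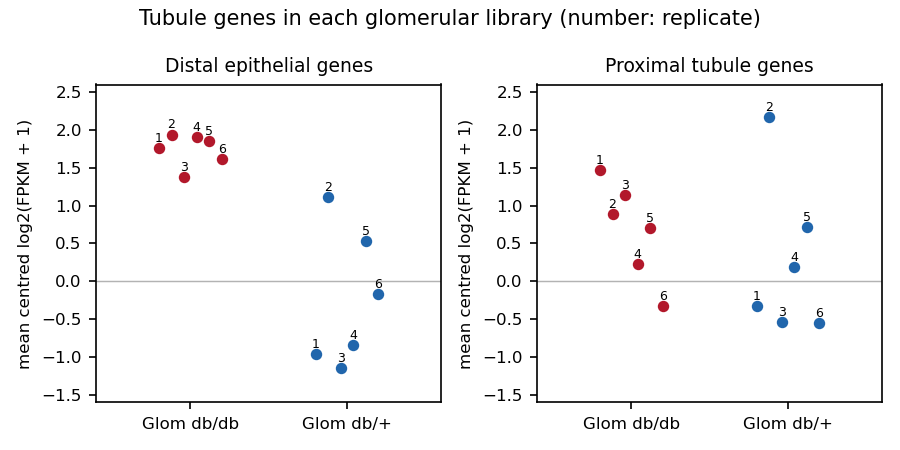
Mean centred log2(FPKM + 1) of 48 distal and epithelial genes (left) and 40 proximal tubule genes (right) in each library, with Glom db/db left of Glom db/+ and the replicate number above each point. The db/db libraries lie at 1.38 to 1.94 in the distal panel, all above the highest db/+ library, replicate 2 at 1.11, while the groups overlap in the proximal panel.

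Cldn4 (chr5:135420996-135422804), a claudin of distal tight junctions, had 20.1 to 32 FPKM (median 28.3) in db/db, against 0.41 to 6.88 FPKM (median 1.48) in 5 db/+ libraries. Every db/db library exceeded every db/+ library and every Cortex db/+ library (5.06 to 9.21 FPKM), with a log2 fold change of 3.34 ± 0.59, adjusted p = 0.000313. In Cortex db/db, Cldn4 had 3.63 to 15.96 FPKM. Cdh1, E-cadherin, had 24.6, 31.5, 30.9 and 25.2 FPKM in 4 db/db libraries, against 1.08 to 8.13 FPKM (median 1.83) in 5 db/+ libraries, with no overlap and a log2 fold change of 2.95 ± 0.59, adjusted p = 0.00116. Foxi1 (chr11:34104338-34108089), the master transcription factor of intercalated cells, had 12.5 to 19.4 FPKM (median 14.5) in db/db, against 0.22 to 5.55 FPKM (median 1.07) in 5 db/+ libraries. It too was above its Cortex db/+ range of 4.50 to 9.53 FPKM in every db/db library, with a log2 fold change of 2.71 ± 0.53, adjusted p = 0.000773. In 5 Cortex db/db libraries Foxi1 had 4.66 to 12.51 FPKM, and the highest of these equalled the lowest db/db glomerular value. Atp6v0d2, a subunit of the proton pump of those cells, had 16.5 to 29.1 FPKM (median 18.7) in db/db, against 0.39 to 9.88 FPKM (median 1.74) in db/+, with no overlap and a log2 fold change of 2.73 ± 0.60, adjusted p = 0.00198.

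Krt19 (chr11:100002124-100009979), a keratin of the collecting duct, had 2.46 to 7.44 FPKM (median 4.04) in db/db, against 0.13 to 0.49 FPKM (median 0.22) in db/+. It rose by 1.96 ± 0.15 with an adjusted p of 1.72e-08, with no overlap, and its db/+ values were all under the filter's 1 FPKM, as were those of Trpv6. Trpv6, a calcium channel, and Emx1, a homeobox factor, belong to the distal convoluted and connecting tubule list. Trpv6 had 1.48 to 3.73 FPKM (median 2.19) in db/db, against 0.04 to 0.66 FPKM (median 0.15) in db/+, with no overlap and a log2 fold change of 1.42 ± 0.21, adjusted p = 6.52e-05. Emx1 had 12.6, 13, 15.6 and 11.9 FPKM in 4 db/db libraries, against 0.87 to 1.53 FPKM (median 0.92) in 5 db/+ libraries, and it was listed at 0 in all 6 Cortex db/+ libraries. Its log2 fold change was 2.80 ± 0.31, adjusted p = 4.15e-06. S100g, the calcium-binding protein calbindin-D9k, had 473, 450.0 and 91.6 FPKM in 3 db/db libraries, against 6.77, 137, 13.9 and 16.2 FPKM in 4 db/+ libraries, and it rose by 3.56 ± 0.87 (adjusted p = 0.00868) with overlapping ranges.

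Slpi (chr2:164179806-164214831), a secreted inhibitor of leukocyte proteases, had 5.23 to 52.6 FPKM (median 20.9) in db/db, against 0.98 to 2.81 FPKM (median 1.04) in db/+. All db/db values exceeded all db/+ values, with a log2 fold change of 3.0 ± 0.37, adjusted p = 7.07e-06. Stc1, a secreted glycoprotein, had 9.66 to 22.6 FPKM (median 14.4) in db/db, against 0.34 to 4.12 FPKM (median 1.24) in db/+, and rose by 2.79 ± 0.35, adjusted p = 7.23e-06, with no overlap. Lcn2, the injury marker NGAL, had 4.07 to 13 FPKM (median 9.04) in 5 db/db libraries, against 0.12 to 4.25 FPKM (median 0.65) in 5 db/+ libraries. It rose by 2.15 ± 0.41 (adjusted p = 0.000638), and 1 db/+ value was above the lowest db/db value. Krt8 and Krt18, which form simple-epithelial filaments and have many processed copies in the genome between which reads may be divided, rose by 2.38 ± 0.46 and 2.70 ± 0.51. Epcam and Cldn3 rose by 3.21 ± 0.50 and 2.49 ± 0.29.

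Among proximal tubule genes, Lrp2, the endocytic receptor megalin, had 0.25 to 2.07 FPKM (median 1.25) in db/db, against 0.15 to 7.2 FPKM (median 0.32) in 5 db/+ libraries. It did not pass (log2 fold change 0.05 ± 0.35, adjusted p = 0.923), and its highest value was db/+ replicate 2. Without that library Lrp2 rose by 0.56 on the log2 scale (adjusted p = 0.0425), and 11 of the proximal genes passed, all higher. Slc22a12, the urate transporter, had 9.77, 5.18, 4.91 and 6.33 FPKM in 4 db/db libraries, against 0.78 to 3.28 FPKM (median 1.83) in 5 db/+ libraries, with no overlap and a log2 fold change of 1.42 ± 0.25, adjusted p = 0.00075.

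The distal level was also entered as a covariate. Then 168 of 4210 genes passed, 117 higher and 51 lower. This level differed between the groups without overlap, so that the fit had little left with which to separate it from diabetes. Of the 142 cortex-high rises 5 kept their call, and of the 178 glomerulus-high calls 57 did. Genes named above, of any tissue class, that kept it included Mafa, Steap4, Gdf5, Arsj, Sox8, Negr1, Qrfpr, Myoz1, 6030419C18Rik, Ankrd1, Rtn2, Fabp4, Grem1, Bmp3, Bmp2, Lrg1, Mfap2, Adamts2 and Txnip. Of the epithelial genes named here, Krt19, Emx1, Slpi, Stc1 and Cldn3 kept it, while the log2 differences of Cldn4, Cdh1, Foxi1 and Atp6v0d2 were -0.12, -0.32, -0.48 and -0.36. Krt19, Slpi, Cldn3, Cldn4, Cdh1, Foxi1 and Atp6v0d2 are themselves among the genes that the level averages. The fit therefore removed part of their change by construction.

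Interferon-stimulated genes and chaperones made up the largest groups of falls among the lists. Of 20 interferon-stimulated genes tested, 9 fell (45%) and 1 rose (5%), with a median log2 fold change of -0.49; 8.91% of all genes fell. Type I interferon induces these genes through the factor ISGF3, which binds the interferon-stimulated response element. Promoter bases are shown for the members that carried this element, GAAANNGAAA on either strand, within 250 bases before the gene start in RefSeq (GRCm38.p6). It was found in 3 of the 6 fallen genes with a promoter entry, in 2 of 6 other list members with one, Gbp2 and Cxcl10, and in 3.46% of all 27025 genes. The runs are written 5′ to 3′ on the gene's strand with the element in capitals, and overlapping matches merge into 1 stretch. The windows are chr19:34640639-34640888 on the plus strand for Ifit1, chr4:156200819-156201068 on the minus strand for Isg15 and chr5:120907526-120907775 on the minus strand for Oas1a.
Ifit1: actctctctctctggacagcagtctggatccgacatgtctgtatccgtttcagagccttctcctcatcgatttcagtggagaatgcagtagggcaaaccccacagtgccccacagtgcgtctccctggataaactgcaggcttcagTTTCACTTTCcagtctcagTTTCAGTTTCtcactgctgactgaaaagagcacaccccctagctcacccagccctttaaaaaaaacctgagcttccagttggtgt
Isg15: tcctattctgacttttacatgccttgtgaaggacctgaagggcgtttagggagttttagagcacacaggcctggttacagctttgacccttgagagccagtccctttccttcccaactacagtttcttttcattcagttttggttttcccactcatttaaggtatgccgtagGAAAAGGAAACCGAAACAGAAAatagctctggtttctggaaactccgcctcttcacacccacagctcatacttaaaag
Oas1a: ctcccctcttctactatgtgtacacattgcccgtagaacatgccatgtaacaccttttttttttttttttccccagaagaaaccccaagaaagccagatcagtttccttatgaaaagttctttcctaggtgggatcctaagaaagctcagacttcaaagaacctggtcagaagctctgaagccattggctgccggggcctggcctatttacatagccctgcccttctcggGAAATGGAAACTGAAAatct
In Ifit1 the matches began 104 and 85 bases before the gene start, in Isg15 at 78, 72 and 66 bases, and in Oas1a at 20 and 14 bases. A match is a description of letters and no binding was measured.

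Usp18, a protease that removes ISG15 from proteins and restrains interferon signalling, had 2.18 to 6.09 FPKM (median 3.78) in db/db, against 6.11 to 12.5 FPKM (median 10.2) in 5 db/+ libraries. The groups did not overlap, with a log2 fold change of -1.06 ± 0.20, adjusted p = 0.000626. Ifit1, which binds foreign RNA, had 1.43 to 5.7 FPKM (median 2.21) in db/db, against 2.56 to 12.5 FPKM (median 6.38) in db/+. The ranges overlapped, and the log2 fold change was -1.0 ± 0.26, adjusted p = 0.0066. Isg15, a ubiquitin-like modifier, had 6.98 to 22.9 FPKM (median 10.6) in db/db, against 32.2, 34.7, 11.4 and 16.4 FPKM in 4 db/+ libraries. Its ranges overlapped and it passed only just, with a log2 fold change of -0.87 ± 0.31 and an adjusted p of 0.0489, and did not pass without db/+ replicate 2 (adjusted p = 0.126). Parp12, an ADP-ribosyltransferase, had 19.5 to 22.6 FPKM (median 19.8) in 5 db/db libraries, against 27.4 to 35.3 FPKM (median 29.5) in 5 db/+ libraries, and it fell without overlap (log2 fold change -0.52 ± 0.10, adjusted p = 0.000772). Oas1a, Mx2, Ifih1, Rtp4 and Cmpk2 fell, with log2 fold changes of -0.64 ± 0.18, -0.76 ± 0.19, -0.44 ± 0.16, -1.30 ± 0.38 and -0.98 ± 0.22. Epsti1 rose by 0.73 ± 0.22, and Cxcl10, a chemokine, had a log2 fold change of 0.70 ± 0.35 and did not pass (adjusted p = 0.148). Without db/+ replicate 2, 7 of 18 fell and 1 rose, and Ifih1 did not pass (adjusted p = 0.0788). None of the 20 passed with the distal level as a covariate or with each 0 as a value, and under the covariate the log2 difference of Rtp4 was 0.15.

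Of 9 genes of the endoplasmic reticulum and heat shock list, 5 fell (55.6%) and none rose (median -0.62). Sdf2l1, a cofactor of protein folding, had 11.8 to 21.6 FPKM (median 17.2) in db/db, against 42.8 to 55.6 FPKM (median 45.7) in 5 db/+ libraries. The highest db/db value was below the lowest db/+ value, and the log2 fold change was -1.49 ± 0.17, adjusted p = 4.15e-06. Pdia6, a disulfide isomerase, had 95.2, 116, 141 and 152 FPKM in 4 db/db libraries, against 234 to 292 FPKM (median 259) in 5 db/+ libraries, with no overlap and a log2 fold change of -1.04 ± 0.15, adjusted p = 7.87e-05. Pdia3, its relative that folds glycoproteins, had 155, 174, 175 and 182 FPKM in 4 db/db libraries, against 257, 284, 265 and 251 FPKM in 4 db/+ libraries. It fell without overlap, with a log2 fold change of -0.62 ± 0.08, adjusted p = 0.000211. These 3 genes kept their call with the distal level as a covariate, and with each 0 as a value 1 of the 9 genes of the list fell. Hspb1, a small heat shock protein that binds actin and is abundant in podocytes, had 35.2 to 59.3 FPKM (median 46.7) in db/db, against 78.8 to 241 FPKM (median 132) in db/+, with no overlap and a log2 fold change of -1.45 ± 0.27, adjusted p = 0.000498. Dnajb9 fell, with a log2 fold change of -0.29 ± 0.08, and Creld2 had a log2 fold change of -0.64 ± 0.24 and did not pass (adjusted p = 0.0658).

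The endoplasmic reticulum stress element, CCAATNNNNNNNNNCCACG on either strand, through which ATF6 drives chaperones, is rare: it was found in 35 of 27025 promoters of the same length (0.13%). Of the 5 fallen genes, all with a promoter entry, 1 held it, Pdia6, and of the other 3 with an entry, Creld2 did. The Pdia6 promoter, chr12:17266339-17266588 on the plus strand, is shown with the element in capitals, 98 bases before the gene start.
Pdia6: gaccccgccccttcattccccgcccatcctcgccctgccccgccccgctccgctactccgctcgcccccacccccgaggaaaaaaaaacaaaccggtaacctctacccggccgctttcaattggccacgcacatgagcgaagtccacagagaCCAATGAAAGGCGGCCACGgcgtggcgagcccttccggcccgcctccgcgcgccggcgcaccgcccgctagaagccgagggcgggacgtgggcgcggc

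**Figure D4:**
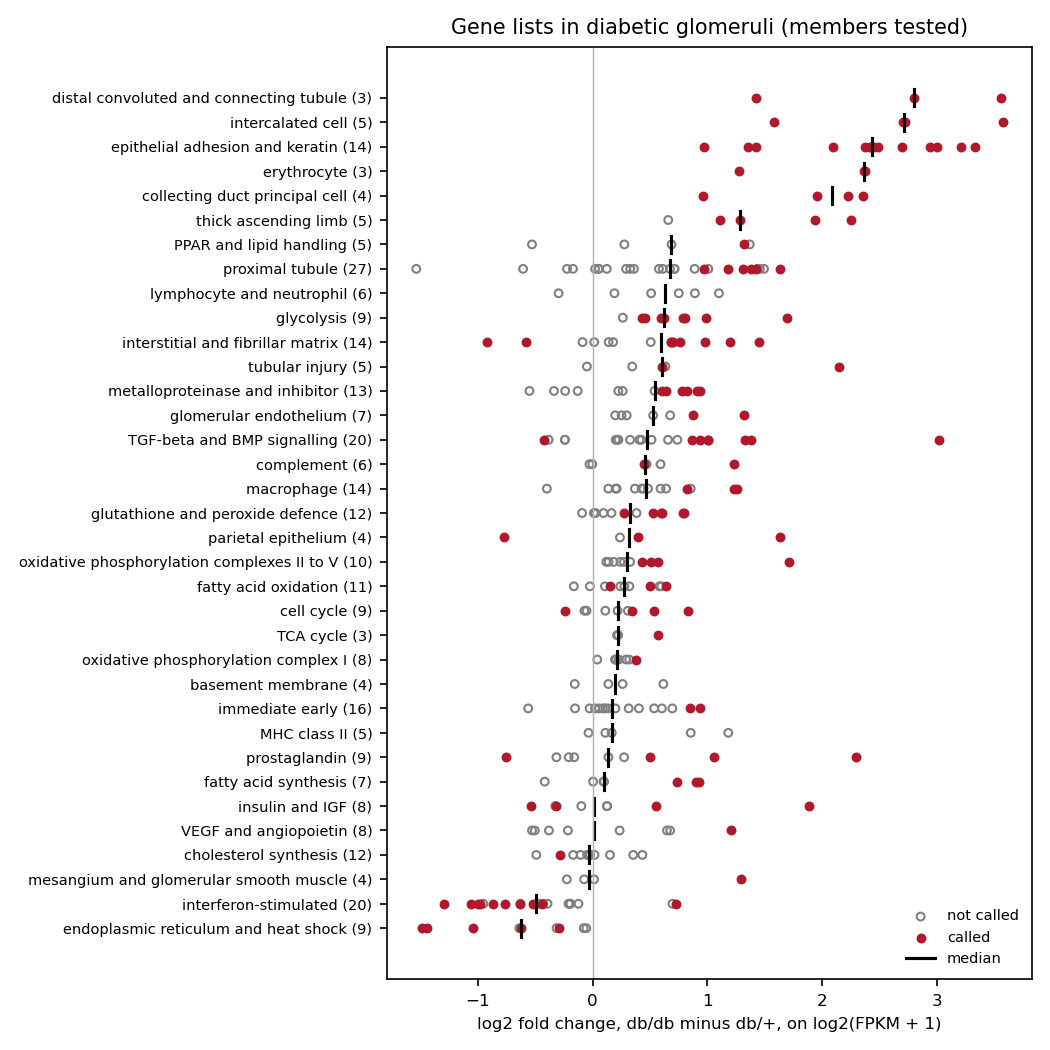
Log2 fold change (horizontal axis, db/db minus db/+, on log2(FPKM + 1)) of each tested member of the gene lists with at least 3 members tested, 1 list per line with the number tested in brackets. Filled points passed an adjusted p of 0.05, open points did not, and bars mark list medians, which run from -0.62 for endoplasmic reticulum and heat shock genes to 2.80 for genes of the distal convoluted and connecting tubule.

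In the glycolysis list, 8 of 9 genes were higher (median 0.62), and 8 of 8 without db/+ replicate 2. With each 0 as a value, 1 of the 9 passed. Gapdh, glyceraldehyde-3-phosphate dehydrogenase, which has many processed copies in the genome, had 256 to 338 FPKM (median 289.9) in db/db, against 139 to 276 FPKM (median 155) in db/+. One db/+ library, replicate 2, lay within the db/db range, and the log2 fold change was 0.80 ± 0.12, adjusted p = 6.08e-05. Slc2a1, the glucose transporter GLUT1 of endothelium and mesangium, had 23.5, 29.9 and 24.7 FPKM in 3 db/db libraries, against 10.9 to 15.7 FPKM (median 11.4) in 5 db/+ libraries, with a log2 fold change of 0.99 ± 0.19, adjusted p = 0.00203, and no overlap. Tpi1, triosephosphate isomerase, had 85.5 to 112 FPKM (median 103) in db/db, against 58.4, 107, 53.4 and 51.3 FPKM in 4 db/+ libraries, with ranges that overlapped through the same library and a log2 fold change of 0.62 ± 0.16, adjusted p = 0.00865. Pgk1, Pgam2, Slc16a3, Pfkl and Eno2 rose by 0.79 ± 0.19, 1.70 ± 0.42, 0.60 ± 0.13, 0.46 ± 0.14 and 0.43 ± 0.14. Pfkl could not be tested without db/+ replicate 2. None of the 9 passed with the distal level as a covariate.

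Mitochondrial genes moved less. Of 8 complex I genes 1 rose, of 10 genes of complexes II to V 4 rose, of 3 TCA cycle genes 1 rose and of 11 genes of fatty acid oxidation 3 rose, with none lower in any of these lists. These counts depended on db/+ replicate 2: without it, 7 of 7, 7 of 9, 3 of 3 and 5 genes were higher. With the distal level as a covariate, 1 gene of fatty acid oxidation passed and none of the other lists did. With each 0 as a value, no gene of these lists passed. Atp5b, the catalytic subunit of ATP synthase, rose by 0.57 ± 0.13 (adjusted p = 0.0157), and Hadh, of fatty acid oxidation, by 0.64 ± 0.10 (adjusted p = 0.000381). In glutathione and peroxide defence, 6 of 12 genes rose (median 0.33). None of the 12 passed with the distal level as a covariate or with each 0 as a value, and 2 rose after quantile normalization. Gclc, the catalytic subunit that limits glutathione synthesis, had 28.4, 34.1 and 23.5 FPKM in 3 db/db libraries, against 14.9, 16.9 and 16.1 FPKM in 3 db/+ libraries, with no overlap and a log2 fold change of 0.79 ± 0.14, adjusted p = 0.00194. Gpx1, glutathione peroxidase, had 163 to 292 FPKM (median 229) in db/db, against 115 to 271 FPKM (median 128) in db/+. Its ranges overlapped through db/+ replicate 2, with a log2 fold change of 0.60 ± 0.16, adjusted p = 0.00827. Nqo1, Hmox1, Sod3 and Gsr rose by 0.78 ± 0.24, 0.53 ± 0.16, 0.60 ± 0.20 and 0.28 ± 0.10.

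In lipid metabolism, 3 of 7 fatty acid synthesis genes rose and 1 of 12 cholesterol synthesis genes fell, Ebp, with a log2 fold change of -0.29 ± 0.08. Elovl6, which elongates long-chain fatty acids, had 2.38 to 4.05 FPKM (median 3.33) in db/db, against 1.06 to 1.86 FPKM (median 1.2) in 5 db/+ libraries, and it rose with no overlap by 0.90 ± 0.14 (adjusted p = 0.000119). Fads2, a desaturase, and Dgat2, which makes triglyceride, rose by 0.93 ± 0.16 and 0.74 ± 0.26.

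Markers of blood and immune cells were read beside these results. The 3 erythrocyte genes tested all rose (median 2.36), and the mean centred level of the list was 0.26 to 1.69 in db/db libraries, against -1.52 to 0.16 in db/+ libraries. Hba-a1, an alpha globin of red cells whose near-identical copy Hba-a2 makes the division of reads between them uncertain, had 18.1 to 72 FPKM (median 27) in db/db, against 2.02 to 14.9 FPKM (median 4.28) in 5 db/+ libraries. The groups did not overlap, with a log2 fold change of 2.36 ± 0.52, adjusted p = 0.00206, and Hba-a2 rose by 2.37 ± 0.52. Alas2, which starts heme synthesis in red cell precursors, had 0.78 to 5.99 FPKM (median 1.99) in 5 db/db libraries, against 0.18 to 0.68 FPKM (median 0.4) in db/+, with no overlap and a log2 fold change of 1.28 ± 0.30, adjusted p = 0.00378, and it was tested through groups other than db/+, where it stayed under 1 FPKM. Of 14 macrophage genes, 3 rose and none fell (median 0.46), against 8 without db/+ replicate 2. Their mean centred level was 0.17 to 1.32 in db/db libraries, against -0.27 to 1.09 in db/+ libraries, and Itgam was listed at 0 in all 12. With the distal level as a covariate, no macrophage or erythrocyte gene passed. With each 0 as a value, 1 gene of each of these 2 lists did. The part of blood cells in the other results was not tested. Fcgr3, an Fc receptor, had 3.99 to 15.4 FPKM (median 5.26) in db/db, against 2.83, 2.15, 1.64 and 1.97 FPKM in 4 db/+ libraries, with no overlap and a log2 fold change of 1.26 ± 0.30, adjusted p = 0.00554. C1qb, a complement component of macrophages, had 16.8 to 65.7 FPKM (median 28.7) in 5 db/db libraries, against 13.6, 15.2, 8.12 and 15.2 FPKM in 4 db/+ libraries, also with no overlap, and a log2 fold change of 1.24 ± 0.38, adjusted p = 0.0229. None of 5 MHC class II genes and none of 6 lymphocyte and neutrophil genes passed.

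The same genotypes were measured in whole cortex, where 406 of 4702 genes (8.63%) passed, and the difference between the glomerular and cortical effect of diabetes was tested. Of 3374 genes, 476 (14.1%) differed, 339 with a positive and 137 with a negative glomerular minus cortical difference. One cortical library stood apart: the FPKM of Cortex db/db replicate 6 summed to 601310, against 210094 to 246975 in the other 5 Cortex db/db libraries. Without it, 631 of 3176 genes differed between the tissues and 595 of 4248 passed in cortex, and without Glom db/+ replicate 2, 590 of 3157 and 461 of 4688 did. Glomerulus-high genes named above were among those that differed: the glomerular minus cortical effect was -1.79 ± 0.20 for Steap4 (adjusted p = 9.98e-09), -1.21 ± 0.13 for Sox8 (adjusted p = 4.65e-09) and 2.71 ± 0.40 for Qrfpr (adjusted p = 1.38e-05). Their Cortex db/+ means were only 0.62, 0.135 and 0.045 FPKM. At such values log2(FPKM + 1) leaves little room for a cortical change. For these 3 genes the difference therefore largely repeats the glomerular effect and says little on cortex. Epithelial genes named above, such as Cldn4 and Slpi, also differed. Cldn4 had a log2 fold change of 0.43 ± 0.43 in cortex (adjusted p = 0.658), and its difference between tissues was 2.91 ± 0.62 (adjusted p = 0.00101). Slpi had -0.02 ± 0.31 in cortex, a difference of 3.02 ± 0.44 (adjusted p = 2.19e-06).

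Of the chaperones and interferon-stimulated genes that fell in glomeruli, none that could be tested passed this test with all libraries. Without Cortex db/db replicate 6, Dnajb9 passed it, with a difference of -0.58 (adjusted p = 0.000408). Sdf2l1 had a log2 fold change of -1.35 ± 0.21 in cortex (adjusted p = 1.80e-05) and a difference between tissues of -0.14 ± 0.31 (adjusted p = 0.833). Hspb1 had -1.18 ± 0.28 in cortex (adjusted p = 0.00412), Ifit1 -0.97 ± 0.23 (adjusted p = 0.00363) and Usp18 -1.0 ± 0.19 (adjusted p = 0.000371), with differences of -0.27 ± 0.39, -0.03 ± 0.32 and -0.06 ± 0.28. Pdia6, Pdia3, Oas1a, Mx2, Isg15 and Ifih1 also fell in cortex. Dnajb9, Parp12 and Cmpk2 did not pass there, at 0.01, -0.29 and -0.46 (limma, adjusted p = 0.99, 0.141 and 0.143). A difference that did not pass does not show equal effects in both tissues. Esm1, endocan of endothelial tip cells, differed between the tissues. It had 2.09 to 6.7 FPKM (median 4.36) in db/db, against 1.24 to 8.63 FPKM (median 1.62) in 5 db/+ libraries, and its log2 fold change of 0.68 ± 0.32 did not pass in glomeruli (adjusted p = 0.124). Esm1 rose by 1.07 without db/+ replicate 2, the highest db/+ library (adjusted p = 0.00206). In cortex it fell (log2 fold change -2.26 ± 0.30, adjusted p = 1.16e-06), a difference between tissues of 2.93 ± 0.42 (adjusted p = 2.90e-06). The macrophage gene Aif1 had 8.5, 2.78, 3.75 and 2.84 FPKM in 4 db/db libraries, against 1.72 to 2.76 FPKM (median 2.34) in 5 db/+ libraries, with a log2 fold change of 0.64 ± 0.26 (adjusted p = 0.0964), while it fell in cortex (log2 fold change -1.47 ± 0.26, adjusted p = 0.00027), a difference of 2.11 ± 0.36 (adjusted p = 0.000126). C3, the central complement component, had 0.31 to 1.46 FPKM (median 0.55) in 5 db/db libraries, against 0.52 to 1.25 FPKM (median 0.69) in db/+, with a log2 fold change of -0.003 ± 0.19 (adjusted p = 0.992), but 1.75 ± 0.27 in cortex (adjusted p = 2.44e-05) and a difference of -1.75 ± 0.36 (adjusted p = 0.000975).

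**Figure D5:**
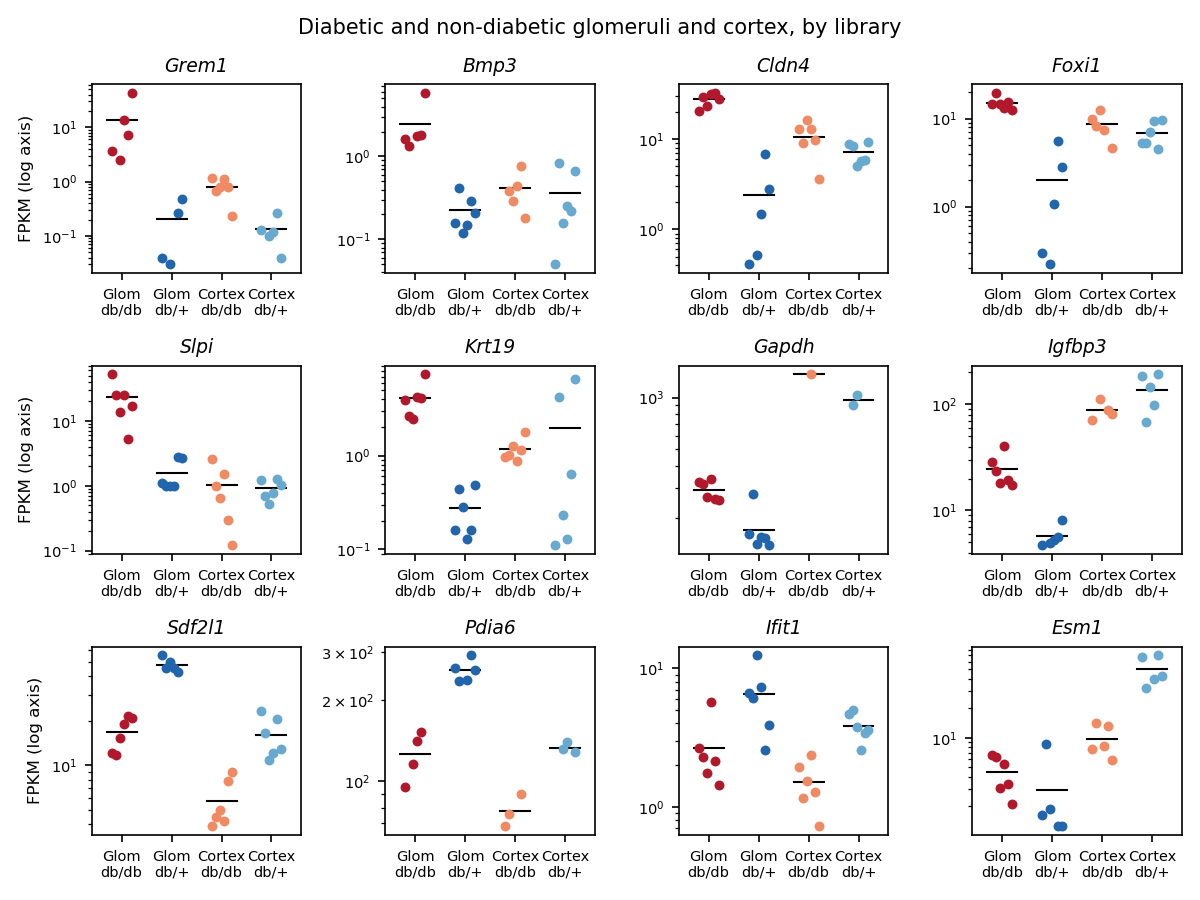
FPKM on log axes in each library with a value above 0 (points) and group means (lines) for 12 genes, in the order Glom db/db, Glom db/+, Cortex db/db and Cortex db/+ within each panel. Cldn4, Foxi1 and Slpi are higher in every db/db glomerular library than in any Cortex db/+ library, Sdf2l1 is lower in diabetes in both tissues, and Esm1 falls in diabetic cortex, by 2.26 on the log2 scale. The highest Cortex db/db value of Foxi1, 12.51 FPKM, equals its lowest db/db glomerular value.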

How the data were processed

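RNA-Seq libraries of glomeruli from 6 db/db and 6 db/+ mice were analysed, with 36 further kidney libraries entering shared fits. The authors mapped paired reads with TopHat and Bowtie to the mm9 transcriptome and computed FPKM with Cufflinks, and the deposited files hold 1 FPKM value for each of 25407 gene symbols per library. For these programs, versions are not stated in the sources used here. FPKM sums were 138666 to 193784 per library, and 7801 to 8626 genes had values above 0. Read depth was not used here, so that precision rests on the spread between mice. Cuffdiff, the authors' test, needs reads and could not be repeated. No pair of libraries held identical values.

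The log2(FPKM + 1) values were fitted with limma 3.58.1 in R 4.3.3, with all 4 glomerular groups (24 libraries) in 1 fit, 1 mean per group and a variance trend. Genes needed an FPKM of at least 1 in 5 libraries and at least 3 values in both groups. Exact zeros were taken as missing. P-values are Benjamini-Hochberg adjusted over all genes tested, with a threshold of 0.05. Tissue class and the difference from cortex came from a fit of 48 kidney libraries. List levels are means of members centred over the glomerular libraries. Genes named are members of fixed lists, those with the smallest p-values or the defining markers, and, per tissue class, from the 10 largest rises and falls with at least 4 values per group and 1 sign in every leave-one-out fit. The members and lists were chosen with earlier results of these data known. A few genes are not reported here. The script was tested on simulated data. Alternatives changed the pseudocount, filter, scaling, variance model, treatment of zeros, minimum of values, tissue class, covariates and libraries used. Tables were prepared with Python 3.11.15, numpy 2.4.6 and pandas 2.3.3, and figures with matplotlib 3.10.9.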

Additional observations from a re-analysis of the deposited data

Results flagged for a closer look

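In 28 of 136 groups of 4 to 6 values tested, 1 library lay far from the others of its group. The rule flags about 1 in 20 groups of independent, normally distributed values. It was applied here mostly to FPKM without a log scale, and the groups share the same libraries. The 28 of 136 are therefore set against no expected share. Among db/db libraries, single high values in FPKM were Aif1 at 8.50, Atp6v0d2 at 29.1, Bmp3 at 5.81, Fcgr3 at 15.4, Grem1 at 42.5, Ifit1 at 5.70, Krt19 at 7.44, Mfap2 at 7.45 and Mmp12 at 4.32, and Ncam1 had a single low value of 2.20. Among db/+ libraries, replicate 2 was the single high value for C3 at 1.25, Col1a1 at 2.4, Col3a1 at 3.97, Col6a1 at 2.5, Dcn at 10.1, Esm1 at 8.63, Gapdh at 276, Gpx1 at 271, Lrp2 at 7.20, S100g at 137 and Tpi1 at 107. Single high values from other db/+ libraries were Elovl6 at 1.86, Emx1 at 1.53, Fabp4 at 189, Igfbp3 at 8.14, Lrg1 at 20.6 and Ptgs2 at 1.33, and Bmp2 had a single low value of 3.26, in replicate 2.

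Of 57 genes with values shown above and enough values in both tissues, the glomerular effect of diabetes differed from the cortical one by the interaction test for 37. These genes were named for their glomerular change, so that this share is set against no other. For those under 1 FPKM in cortex, log2(FPKM + 1) leaves little room for a cortical change, and the difference largely repeats the glomerular effect. Of the 37, 34 still differed without Cortex db/db replicate 6, where Atp6v0d2 (adjusted p = 0.0553) and Nfil3 (0.0768) did not pass and Ren1 could not be tested, and 35 without Glom db/+ replicate 2, where Nfil3 (0.0586) and Ptgs2 (0.0536) did not pass (limma). The glomerular minus cortical log2 difference was positive for Slpi (3.02), Esm1 (2.93), Cldn4 (2.91), Qrfpr (2.71), Cdh1 (2.63), Igfbp3 (2.44), Foxi1 (2.44), Atp6v0d2 (2.40), Grem1 (2.38) and Stc1 (2.20). Smaller positive differences belonged to Ptges (2.12), Aif1 (2.11), Dcn (2.05), Krt19 (1.95), Ren1 (1.86), Myoz1 (1.70), Fcgr3 (1.59), 6030419C18Rik (1.47), Ankrd1 (1.32) and Bmp3 (1.31), and to Lrg1 (1.21), Trpv6 (1.21), Mfap2 (0.80), Vwf (0.79), Bmp2 (0.77), Rtn2 (0.61), Ptgs2 (0.51) and Adamts2 (0.48). It was negative for Steap4 (-1.79), C3 (-1.75), Gdf5 (-1.50), Arsj (-1.36), Sox8 (-1.21), Negr1 (-1.15), Nfil3 (-0.93), Ncam1 (-0.74) and Ptger2 (-0.67).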

How the results depend on the processing

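The counts of genes changed in glomeruli, in all and by tissue class, and the log2 fold changes of 120 genes of the text were recomputed under each alternative. The count of genes that differed between the tissues was recomputed with each 0 as a value, with the block and without 2 libraries, and the cortical count without those libraries alone, as alternatives chosen after seeing the data where a library was left out. Of the 109 called genes, 107 kept their call with a pseudocount of 0.1, 104 without a filter on low values, 105 after median-of-ratios rescaling, 87 after quantile normalization, 101 with the proximal tubule level as a covariate and 68 whichever library was left out. The count of 1071 changed genes ran from 860 to 1216 when 1 library was left out, and the 5 cortex-high genes that fell ran from 3 to 6, with 3 without db/+ replicate 5 and 3 without db/db replicate 4.

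With each 0 as a value, 127 genes passed, 112 higher and 15 lower. There were then 31 cortex-high rises and 0 falls, 6 glomerulus-high rises and 6 falls, 56 genes that differed between tissues, and 28 called genes of the text. Among called genes, signs turned for Atp5b (-1.20), Dnajb9 (1.5), Ebp (0.55), Fabp4 (-0.30), Gsr (-0.38), Hmox1 (-1.06), Irs1 (0.23), Isg15 (0.63), Lrg1 (-0.91), Pgk1 (-2.96), Slc2a1 (-0.76), Tgfbr3 (0.64) and Txnip (-2.65), all of which had libraries at 0. With at least 5 values per group, fewer genes were tested: 590 passed, 386 higher and 204 lower, with 3 cortex-high falls, 42 glomerulus-high rises and 64 falls.

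With the distal level as a covariate, 168 passed, 117 higher and 51 lower. These held 5 cortex-high rises and 1 cortex-high fall, and 49 glomerulus-high rises and 19 falls. In that fit 30 called genes of the text kept their call. Among called genes, signs turned for Atp6v0d2 (-0.36), Cdh1 (-0.32), Cldn4 (-0.12), Foxi1 (-0.48), Scin (-0.31) and Rtp4 (0.15). Atp6v0d2, Cdh1, Cldn4 and Foxi1 are members of the level itself, so that part of their change was removed by construction. Quantile normalization left 406 rises, 40 of them glomerulus-high. Median-of-ratios rescaling gave 606 falls, 11 of them cortex-high, and moved the median of all genes to -0.04. Array weights gave 168 glomerulus-high falls. The cause of these shifts was not tested. A fold of at least 1.5 left 571 genes, 91 of them lower. A 4-fold class left 56 cortex-high rises and 0 falls, and 18 glomerulus-high rises and 36 falls. A class at any fold held 24 cortex-high falls, and 170 glomerulus-high rises and 234 falls. There were 3 cortex-high falls with the class taken from Glom db/+, and 3 with the db/db and db/+ libraries fitted alone.

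The replicate numbers were not taken to pair the libraries: the deviations of same-numbered libraries correlated at -0.01 to 0.44, above 0.1 in 4 of 6 pairs, and 3 of 6 db/db libraries correlated best with their own number. With the replicate block, 1023 genes passed, 693 higher and 330 lower, 489 differed between tissues, and 99 called genes of the text kept their call. FPKM keep no depth here, a gene at 0 cannot be told from a failed estimate, and genes with 3 values per group rest on those few mice.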

Other observations

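Values of a few genes of the circadian clock are given next. They were chosen after their values were seen and stand for no list. The circadian genes Clock, Per1, Dbp, Nr1d1 and Rora were listed at 0 in all 12 libraries. Npas2, the partner of BMAL1 that can stand in for CLOCK, had 0.17 to 0.29 FPKM (median 0.24) in db/db, against 3.88, 2.55, 1.3 and 0.51 FPKM in 4 db/+ libraries. No db/db value reached the lowest db/+ value, and the log2 fold change was -1.17 ± 0.29, adjusted p = 0.00663 (limma). Nfil3, a repressor of D-box genes, had 0.52 to 0.96 FPKM (median 0.65) in db/db, against 1.61 to 3.2 FPKM (median 1.87) in 5 db/+ libraries, and it fell with no overlap (log2 fold change -0.89 ± 0.20, adjusted p = 0.00272). Npas2 and Nfil3 were under 1 FPKM in every db/db library with a value and passed the filter on low values through other groups.

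On the other side, Per2, a clock repressor, had 9.9, 5.8 and 9.63 FPKM in 3 db/db libraries, against 2.08, 2.88 and 4.75 FPKM in 3 db/+ libraries, with a log2 fold change of 1.17 ± 0.25 (adjusted p = 0.00604). Per2 could not be tested without db/+ replicate 2. Bhlhe41, another clock repressor, had 8.84 to 23.2 FPKM (median 13.6) in db/db, against 3.17, 4.39, 3.82 and 9.16 FPKM in 4 db/+ libraries, and it rose by 1.38 ± 0.35 (adjusted p = 0.00635). Usp2 and Wee1, known as rhythmic targets of the clock, rose by 2.25 ± 0.35 and 0.98 ± 0.13. The hour at which each mouse was killed is not given in the sources used here, and its part in these values was not tested.

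The immediate early gene Ier3, chosen from its list by its p-value, rose by 0.94 ± 0.15 (adjusted p = 9.88e-05). It was 1 of 2 of the 16 immediate early genes tested that passed, and the 14 others had no call. There were 4 rises among 15 without db/+ replicate 2.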
